A study of Mus musculus with 4 samples.

Results

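Phase I enzymes are the oxidases and hydrolases that make lipids, drugs and dietary chemicals more reactive or more polar. The genes examined here were those of 4 families, cytochrome P450 (Cyp), flavin-containing monooxygenase (Fmo), carboxylesterase (Ces) and aldehyde dehydrogenase (Aldh), taken by gene symbol. A gene was a member when a probe set naming that gene alone lay above the median of its array on at least 1 of 4 arrays, and the probe set with the highest mean stood for the gene. This gave 61 members among 110 genes of these families with such a probe set, and among 12189 genes measured in the same way in the series.

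Cytochrome P450 enzymes are heme proteins of the endoplasmic reticulum or mitochondrion that insert 1 oxygen atom into a substrate with electrons from NADPH. Families 1 to 3 act mainly on foreign chemicals and on arachidonic acid, family 4 hydroxylates fatty acids, and other families make and break down sterols, bile acids, vitamin D and retinoic acid. Fmo enzymes oxygenate nitrogen and sulfur atoms with a flavin, Ces enzymes cut ester bonds in drugs and lipids, and Aldh enzymes turn aldehydes into acids, retinaldehyde into retinoic acid among them. In the gut most of these genes are transcribed in absorptive epithelial cells, under nuclear receptors that sense bile acids, lipids and xenobiotics, and their levels differ along the length of the intestine.

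Total RNA of the distal colon was hybridised to Affymetrix arrays, with 1 array for each of 4 mice. They were an untreated wild-type mouse (WT), an untreated mouse deficient in the secreted protease Adamts12 (KO), and a mouse of each genotype given 2% dextran sodium sulfate (DSS), which injures the colonic epithelium, in the drinking water. Treatment began at 8 to 10 weeks of age and lasted 7 days by the design text or 8 days by the protocol, with 1 day of recovery. Sex, strain background and the deleted part of Adamts12 are not stated, and each group is 1 animal, so no difference between arrays can be checked against replicates.

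Values are log2 signals, a difference of 1 is 2-fold, and each array's median lay between 3.42 and 3.46. The brighter Adamts12 probe set read 2.18 on both WT arrays, 1.42 in untreated KO and 1.41 in KO DSS, in the direction of the labels but dim. Markers of gut position set the array labelled untreated KO apart: the posterior gene Hoxb13 read 2.48 there, under the median, against 7.84 to 9.47 on the others. The summed linear signal of 8 markers of the posterior colon was 1285 in untreated WT, 83.5 in untreated KO, 312 in WT DSS and 566 in KO DSS. That of 15 markers of the small intestine and proximal colon was 261, 3001, 564 and 200.1 in the same order, and 9 of the 10 that passed the filter were at least 2-fold higher in untreated KO than in untreated WT. WT DSS also differed from untreated WT in these markers. Of the 6 posterior markers that passed the filter, 4 were at least 2-fold lower with DSS in WT and 0 higher. Of the 10 of the small intestine and proximal colon, 4 were at least 2-fold higher and 1 lower. Several phase I genes are known to follow that axis, and the part of gut position in the differences below was not tested. Of 10 markers of epithelium 0 were 2-fold lower with DSS in WT and 1 was in KO, the claudin gene Cldn3 (-1.06), and their summed signal ranged from 17559 to 21001. Over the 4 arrays the summed signal ranged from 3581 to 6957 for smooth muscle markers, from 79.9 to 138 for adipocyte markers, from 618 to 1014 for macrophage and monocyte markers, from 151 to 468 for B and T cell markers and from 74.6 to 113 for endothelial markers.

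Phase I genes were mostly lower after DSS, in both genotypes. In WT, 20 of 61 members (32.8%) were at least 2-fold lower with DSS, against 4.96% of all genes, and 2 were at least 2-fold higher, against 5.82%. In KO, 26 members (42.6%) were at least 2-fold lower, against 6.68% of all genes, and 2 were higher, against 10.8%. The median DSS difference of the members was -0.42 in WT and -0.71 in KO, beside -0.01 and 0.06 over all genes. The 2 lower sets shared 9 members. The 20 in WT held all 8 members at least 2-fold above each other array in untreated WT. The 26 in KO held all 14 members with that pattern in untreated KO. In bulk tissue, fewer cells of a type and less RNA per cell cannot be told apart.

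The genotypes differed mainly without DSS. On the untreated arrays 16 members (26.2%) were at least 2-fold higher in KO than in WT, against 3.43% of all genes, and 11 (18.0%) were lower, against 5.99%. Under DSS 4 members were at least 2-fold higher in KO, against 4.22% of all genes, and 6 were lower, against 1.21%. The DSS difference in a genotype and the untreated genotype difference share an untreated array, so a gene that is high on 1 untreated array alone appears in both.

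The filter bears on these counts. Of the 61 members, 34 lay above the median on all 4 arrays, 10 on 3, 8 on 2 and 9 on 1, and a member that passed on 1 array alone had to be highest there. Those were Cyp2d12, Cyp2f2, Fmo1 and Fmo4 on the untreated WT array, Ces1e, Cyp26a1 and Cyp4b1 on the untreated KO array, Cyp2e1 on the WT DSS array and Cyp7b1 on the KO DSS array. Among the 34 members above the median everywhere, 11 were at least 2-fold lower with DSS in WT (32.4%) and 15 in KO (44.1%). Of the 10730 genes that met the same condition, 4.17% and 5.80% were. In either genotype 0 of the 34 were 2-fold higher, beside 5.33% of those genes in WT and 9.26% in KO. The genotype counts were smaller in this set. On the untreated arrays 5 of the 34 (14.7%) were at least 2-fold higher in KO, beside 2.54% of those genes, and 5 (14.7%) lower, beside 4.93%. Under DSS 0 of the 34 were 2-fold higher in KO, beside 3.13% of those genes, and 1, Cyp4f14, was lower (2.94%), beside 0.923%. Nearest to the filter, Aldh1a2 and Cyp2e1 passed with highest values of 3.54 and 3.53, and Aldh8a1 and Ces4a did not, with 3.46 and 3.40.

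**Figure D1:**
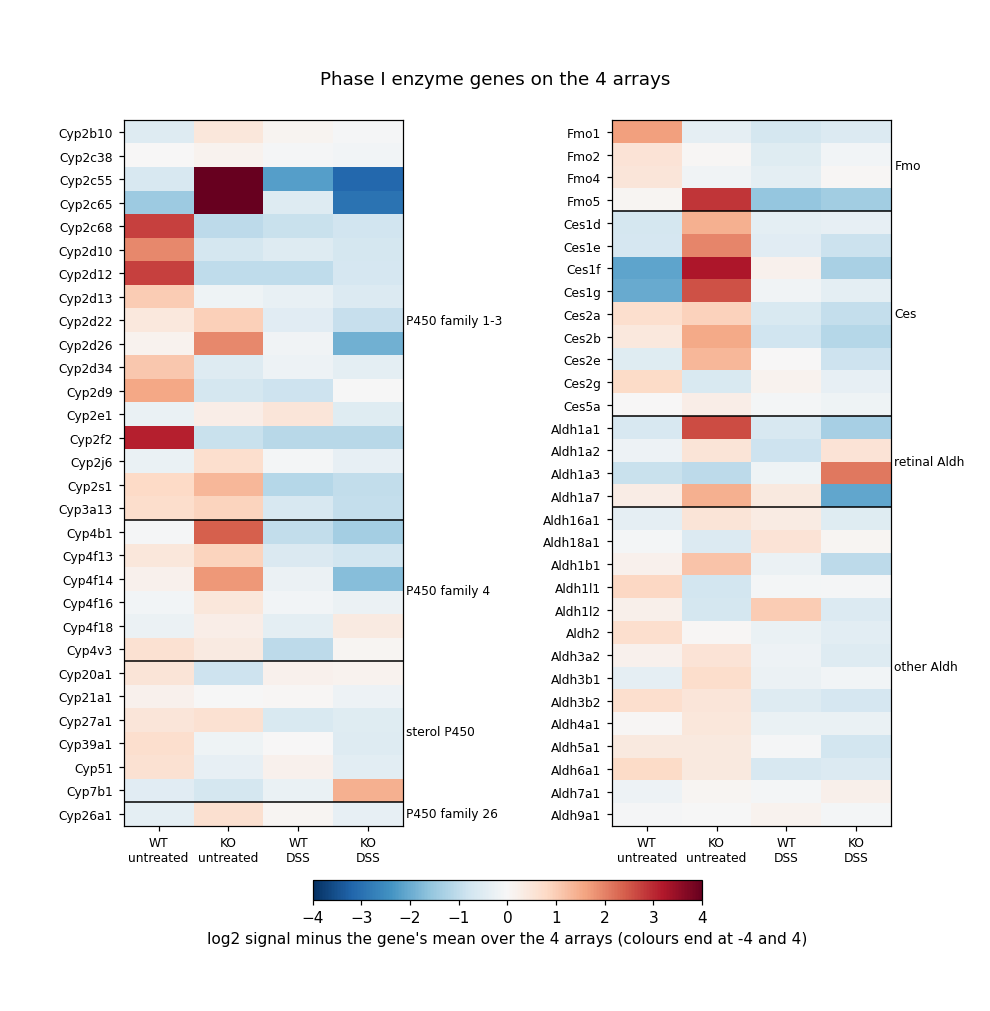
Each row is a member and each column an array, and the colour is the log2 signal minus that gene's mean over the 4 arrays, with colours ending at -4 and 4. Cyp2c55, Cyp2c65, Ces1f and Aldh1a1 stand out as high on the untreated KO array, Cyp2f2, Cyp2d12 and Cyp2c68 on the untreated WT array, and Aldh1a3 on the KO DSS array, where Aldh1a7 and Cyp2d26 are low.

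A set of 9 members was at least 2-fold lower with DSS in both genotypes, 14.8% of the members against 1.32% of all genes, and 0 members were 2-fold higher in both, against 2.48%. They were the P450 genes Cyp2s1, Cyp3a13, Cyp2c55, Cyp4f13 and Cyp27a1, the carboxylesterase genes Ces2a and Ces2b, Fmo5 and Aldh3b2. Both untreated arrays lay above both DSS arrays for 27 members (44.3%), against 22% of all genes, and both DSS arrays lay above both untreated arrays for 3, Aldh18a1, Aldh1a3 and Cyp7b1, against 26.4%.

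Cyp2s1, an epithelial P450 inducible through the aryl hydrocarbon receptor, had log2 values of 7.37 in untreated WT, 7.89 in untreated KO, 5.42 in WT DSS and 5.57 in KO DSS. The treatments did not overlap, and the differences were -1.95 in WT and -2.32 in KO, or 3.86-fold and 4.99-fold. Fitted additively with genotype in limma, where disagreement between the genotypes counts as error, the DSS difference was -2.14 (SE 0.25, adjusted p = 0.364). Cyp3a13, the main intestinal member of the drug-metabolizing Cyp3a subfamily, stood at 8.30 and 8.49 untreated and at 6.94 and 6.64 with DSS in WT and KO, a model difference of -1.61 (SE 0.26, adjusted p = 0.364). For both genes the gap between treatments was wider than any gap between genotypes.

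The Ces2 enzymes hydrolyse drugs and acylglycerols in the intestine. Ces2a read 6.14 in untreated WT, 6.39 in untreated KO, 4.88 in WT DSS and 4.52 in KO DSS. Ces2b read 4.44, 5.55, 3.23 and 2.89 in that order. In both cases the DSS arrays were the lower pair, by -1.26 and -1.87 for Ces2a and by -1.21 and -2.66 for Ces2b in WT and KO. Their neighbours in the same gene cluster differed. Ces2e was at least 2-fold lower with DSS in KO (-2.15, or -0.34 with untreated WT as the reference, against 0.51 in WT), and Ces2g by less than 2-fold in either (-0.61 in WT, 0.28 in KO).

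Fmo5, the flavin monooxygenase of gut and liver, had log2 values of 4.0 in untreated WT, 6.79 in untreated KO, 2.40 in WT DSS and 2.54 in KO DSS. It was lower with DSS by -1.60 in WT and -4.25 in KO, and the larger drop began from the higher untreated KO value, since the DSS arrays differed by 0.14. A second Fmo5 probe set gave -0.74 in WT, and in KO it read 5.20 untreated and 1.38, under the background limit, with DSS. The remaining members of this set had smaller differences. The mitochondrial sterol 27-hydroxylase gene Cyp27a1 differed by -1.09 in each genotype (-0.94 for KO DSS against untreated WT), the leukotriene-hydroxylating Cyp4f13 by -1.03 in WT and -1.61 in KO, and Aldh3b2, a lipid aldehyde dehydrogenase, by -1.18 and -1.16.

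**Figure D2:**
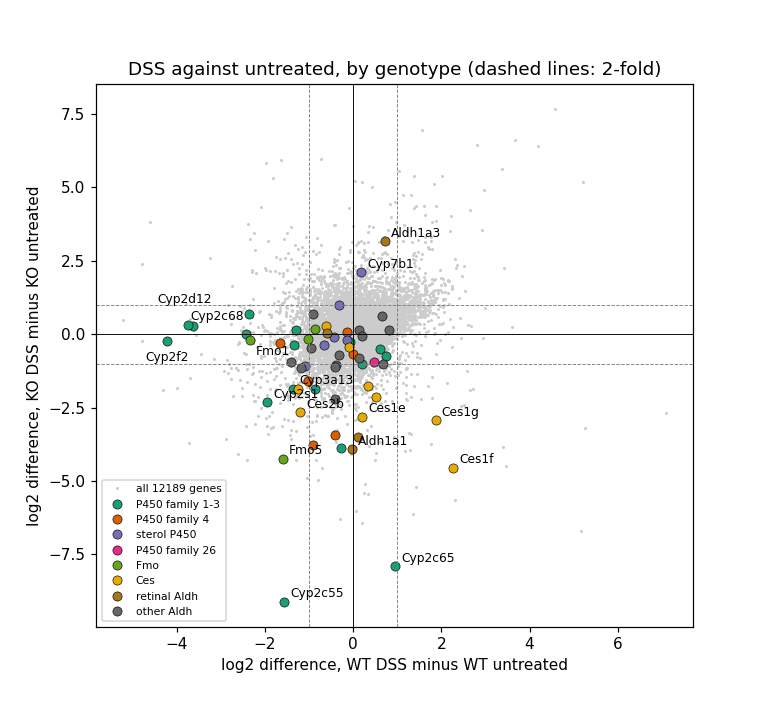
The log2 DSS difference in WT (horizontal) is plotted against that in KO (vertical), with members coloured by family, all 12189 genes in grey and dashed lines at 2-fold. Cyp2s1, Cyp3a13, Ces2b and Fmo5 lie in the lower left, Cyp2f2, Cyp2d12 and Cyp2c68 are low in WT alone, and Ces1f and Ces1g are higher in WT and lower in KO.

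Neither any member (0 of 61) nor any other gene (0%) passed limma's adjusted threshold of 0.05 for DSS. With p left unadjusted, 10 members passed 0.05 as lower (16.4%), against 4.15% of all genes, and 0 higher, against 7.64%. They were 8 of the 9 members 2-fold lower in both genotypes (Cyp2c55 was the exception), with Aldh6a1, a mitochondrial enzyme of valine breakdown, at -1.17 (SE 0.26) and Cyp2d22 at -1.37 (SE 0.38). The smallest adjusted p of a member was 0.364. In a fit with no genotype covariate, 13 members passed 0.05 unadjusted over the 4 arrays. That count has no share of all genes beside it, so it is not a result about the members.

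The Cyp2c genes form a cluster on chromosome 19 in the RefSeq annotation of GRCm38.p6, and they encode epoxygenases and hydroxylases of arachidonic acid, steroids and drugs. Cyp2c55 had log2 values of 4.49 in untreated WT, 11.13 in untreated KO, 2.93 in WT DSS and 2.01 in KO DSS. Cyp2c65, the next gene on the array in chromosome order, read 3.88, 10.29, 4.83 and 2.38. Both were bright on the untreated KO array alone, 99.7-fold and 85.0-fold above untreated WT, while KO DSS lay below WT DSS by -0.92 and -2.45. Set against the untreated WT array, KO DSS was lower by -2.48 for Cyp2c55 and by -1.50 for Cyp2c65, in place of -9.12 and -7.91 against untreated KO. Cyp2c68, further along the same cluster, was instead brightest in untreated WT, with 6.96 in untreated WT against 3.18 in untreated KO, 3.33 in WT DSS and 3.46 in KO DSS. Cyp2c38, between them, ranged only from 3.45 to 3.71, and 7 other Cyp2c genes on the array (Cyp2c23, Cyp2c29, Cyp2c37, Cyp2c39, Cyp2c50, Cyp2c54 and Cyp2c70) lay under the median on every array. The Cyp2c65 probe set is of a type that can match several transcripts, and the probes of Cyp2c68 could be shared with close paralogs of the cluster.

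The 250 bases before the RefSeq start of these Cyp2c genes are printed with those of Cyp2f2, described below, so that their upstream sequence can be set beside their values. They are read 5′ to 3′ on the gene's strand from RefSeq, build GRCm38.p6. Capitals mark matches on either strand to GCGTG (the aryl hydrocarbon receptor core), AGGTCA (a nuclear receptor half-site), TGACNNNGC (the antioxidant element) or CAAAGTCCA (a motif of HNF4 factors, added after the sequences were seen).

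Cyp2c55 (chr19:39006769-39007018, plus strand): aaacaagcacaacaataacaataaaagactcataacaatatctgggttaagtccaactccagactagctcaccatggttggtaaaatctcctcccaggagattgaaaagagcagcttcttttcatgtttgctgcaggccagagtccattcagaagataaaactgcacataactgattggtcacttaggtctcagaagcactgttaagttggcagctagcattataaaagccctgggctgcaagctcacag

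Cyp2c65 (chr19:39060756-39061005, plus strand): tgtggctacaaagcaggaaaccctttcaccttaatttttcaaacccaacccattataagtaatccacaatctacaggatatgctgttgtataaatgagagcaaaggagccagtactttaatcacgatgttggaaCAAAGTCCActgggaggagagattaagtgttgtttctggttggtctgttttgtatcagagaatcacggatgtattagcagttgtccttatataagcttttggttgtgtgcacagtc

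Cyp2c68 (chr19:39741102-39741351, minus strand): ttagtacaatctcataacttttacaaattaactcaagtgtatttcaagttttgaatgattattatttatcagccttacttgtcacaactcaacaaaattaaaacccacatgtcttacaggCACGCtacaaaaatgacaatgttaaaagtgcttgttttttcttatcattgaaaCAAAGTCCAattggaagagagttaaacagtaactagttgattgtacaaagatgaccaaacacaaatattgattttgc

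Cyp2f2 (chr7:27119705-27119954, plus strand): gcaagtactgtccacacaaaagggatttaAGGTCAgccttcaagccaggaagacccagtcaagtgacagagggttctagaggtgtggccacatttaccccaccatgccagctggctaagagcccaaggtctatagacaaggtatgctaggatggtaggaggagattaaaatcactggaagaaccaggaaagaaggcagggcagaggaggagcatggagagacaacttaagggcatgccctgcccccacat

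Cyp2c65 and Cyp2c68 hold CAAAGTCCA, which begins 116 and 77 bases before their starts, and which 0.384% of the 32851 promoters in the table hold. These were the only matches among the 51 promoters of 45 members, and the motif was chosen on these sequences, so the share is a description. Cyp2c68 also holds GCGTG on the reverse strand, 130 bases before the start, Cyp2f2 holds AGGTCA 221 bases before it, and Cyp2c55 holds none of the 4 motifs in this window. Over the members' promoters, GCGTG was present in 23.5% (28.2% of all promoters), AGGTCA in 13.7% (14%) and TGACNNNGC in 7.84% (10.2%), and no motif overlapped another in the printed sequences.

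The Ces1 genes, neighbours on chromosome 8 that encode lipid and drug esterases of liver and gut, were also brightest in untreated KO where they passed the filter. Ces1f had log2 values of 2.68 in untreated WT, 8.03 in untreated KO, 4.95 in WT DSS and 3.48 in KO DSS. Ces1g read 1.70, 6.27, 3.57 and 3.34. Both were highest in untreated KO and lowest in untreated WT, so that DSS arrays were higher than untreated in WT (2.27 and 1.87) and lower in KO (-4.55 and -2.93). No other member reached 2-fold higher with DSS in WT on the probe set that stood for it, but a second Aldh18a1 probe set gave 1.10. The only Ces1f probe set is of a type that can match several transcripts. With untreated WT as the reference for the KO DSS array, the KO values turned to 0.80 for Ces1f and 1.64 for Ces1g. Ces1d (4.07, 6.22, 4.41 and 4.45) was higher in untreated KO by 2.15, and its DSS difference in KO turned from -1.77 to 0.38 with that reference. Ces1e, at or under the background limit of 1.39 in untreated WT and KO DSS, was higher in untreated KO by at least 2.57. Ces5a, further along that chromosome, was nearly level, between 6.08 and 6.52, on a probe set of a type that can match several transcripts. Its other probe sets were under the median on every array (1.06 to 1.57 and 2.74 to 3.03).

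**Figure D3:**
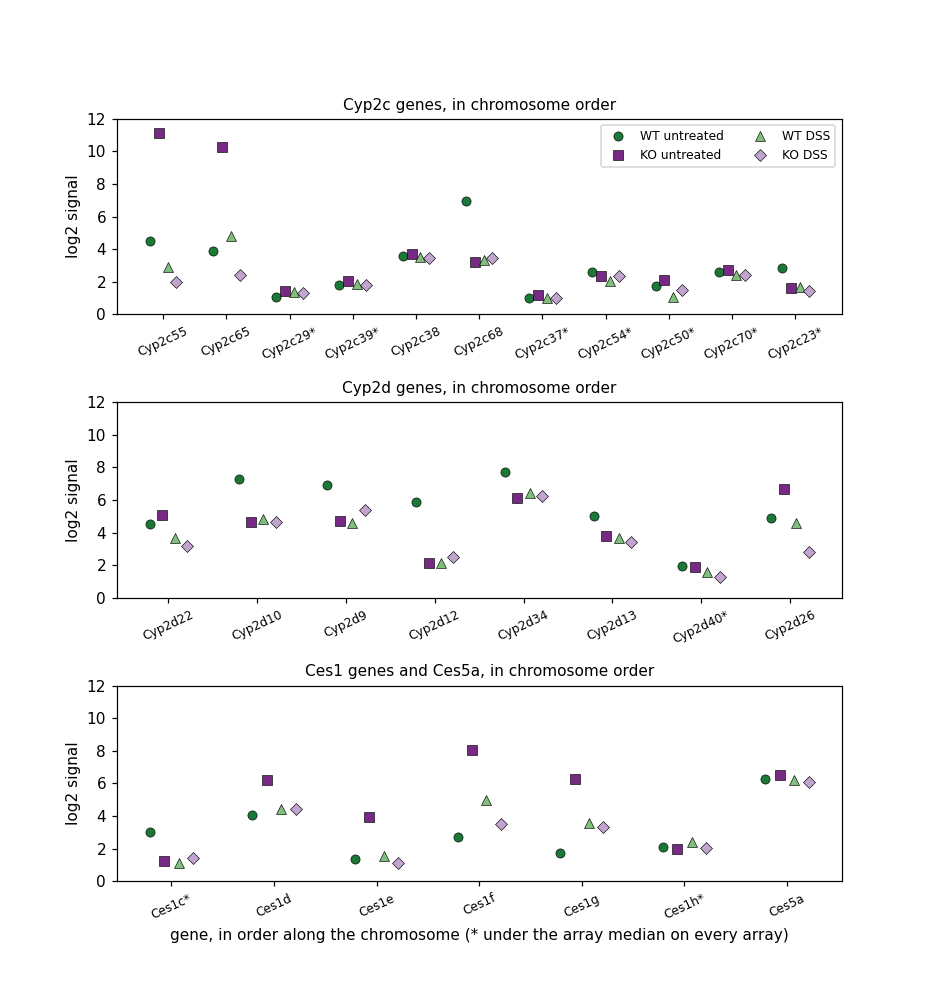
Log2 signal on the 4 arrays for the Cyp2c, Cyp2d and Ces1 genes measured, placed in order along the chromosome, with an asterisk for genes under the median on every array. Cyp2c55, Cyp2c65, Ces1f and Ces1g are highest in untreated KO, while Cyp2c68 and 5 adjacent measured Cyp2d genes, from Cyp2d10 to Cyp2d13, are highest in untreated WT.

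In all, 14 members were at least 2-fold above each other array in untreated KO, 23.0% against 1.82% of all genes. Of these, Ces1e and Cyp4b1 had passed the filter on that array alone, and among the 34 members above the median everywhere the count was 4 (11.8%, beside 1.18% of such genes), Aldh1a1, Ces1d, Ces2e and Cyp4f14. Besides Fmo5, Cyp2c55, Cyp2c65, Ces2b, Ces2e and the 4 Ces1 genes, they were Aldh1a1, Aldh1a7, Cyp2d26, Cyp4b1 and Cyp4f14. Aldh1a1, which makes retinoic acid, read 6.62 in untreated WT, 9.86 in untreated KO, 6.60 in WT DSS and 5.94 in KO DSS. The other arrays lay within 0.68 of each other, and KO DSS was lower by -0.68 with untreated WT as the reference in place of -3.92. Cyp4b1, a fatty acid and drug hydroxylase, read 3.18, 5.63, 2.26 and 1.87, and Cyp4f14, which inactivates leukotriene B4, 7.27, 8.83, 6.86 and 5.39. For Aldh1a7, Cyp2d26, Cyp4f14 and Cyp2c65 the KO DSS array was also at least 2-fold below each other array, 6.56% of the members against 0.468% of all genes. Of these, Aldh1a7, Cyp2d26 and Cyp2c65 had passed the filter on every array but KO DSS and so had to be lowest there. Among the 34 members above the median everywhere the count was 1, Cyp4f14, beside 43 of 10730 such genes.

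Among the Aldh genes, Aldh1a7, a paralog of Aldh1a1, had 4.88 in untreated WT, 6.01 in untreated KO, 4.98 in WT DSS and 2.52 in KO DSS. Cyp2d26 had 4.89, 6.69, 4.61 and 2.83. Both were near equal on the WT arrays and lay above that pair in untreated KO and below it in KO DSS. The KO DSS array was at least 2-fold below both untreated arrays for 16 members (26.2%), against 2.42% of all genes. The 16 were the set lower in both genotypes except Cyp27a1, with Cyp2c65, Cyp2d22, Cyp2d26, Cyp4b1, Cyp4f14, Aldh1a7, Aldh5a1 and Aldh1b1. The filter bears on this count too. Cyp4b1 had passed on the untreated KO array alone, and Ces2b, Cyp2c55 and Fmo5 on the untreated arrays alone. Aldh1a7, Cyp2c65, Cyp2d22 and Cyp2d26 had passed on every array but KO DSS. The count was not made for the members above the median everywhere. Aldh1b1, a mitochondrial aldehyde dehydrogenase of colonic crypts, read 7.37 and 8.33 untreated and 6.95 and 6.14 with DSS in WT and KO.

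The reverse pattern, brightest in untreated WT, was that of drug-metabolizing P450 genes and Fmo1. The untreated WT array was at least 2-fold above each other array for 8 members (13.1%), against 1.46% of all genes. Cyp2d12, Cyp2f2 and Fmo1 had passed the filter on that array alone and so had to be highest there, and among the 34 members above the median everywhere the count was 3 (8.82%, beside 1.03% of such genes), Cyp2d10, Cyp2d34 and Cyp2d9. The 8 were Cyp2c68, Cyp2f2, Fmo1 and 5 of the 7 Cyp2d members, which encode a subfamily that oxidises basic drugs and amines. Cyp2f2, known for bioactivating naphthalene in the airway, read 6.16 in untreated WT, 2.17 in untreated KO, 1.94 in WT DSS and 1.95 in KO DSS, so that it was 18.6-fold lower with DSS in WT. Cyp2d12 read 5.88, 2.15, 2.13 and 2.48, and Cyp2d10 7.27, 4.63, 4.83 and 4.65. On all 3 the other arrays were nearly level with each other.

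Cyp2d9 (6.93, 4.69, 4.56 and 5.38 in the same order of arrays) and Fmo1 (5.40, 3.41, 3.06 and 3.21) had smaller gaps. Cyp2d34 and Cyp2d13 were lower in untreated KO than in untreated WT by -1.61 and -1.20, and a second Cyp2d13 probe set gave -3.29. The Cyp2d genes lie together on chromosome 15. In that order Cyp2d10, Cyp2d9, Cyp2d12, Cyp2d34 and Cyp2d13 were the ones brightest in untreated WT, while Cyp2d22 and Cyp2d26, at the ends of the measured cluster, were not. Close sequence among Cyp2d genes means that probe sets could share transcripts. With them, Ttr, Clps and Cela1 from a list of liver and pancreas markers were higher in untreated WT. They differed from untreated KO by at least 2-fold (-2.78, -2.66 and -2.67 for KO minus WT). The liver markers Alb (2.25 to 2.55), Ahsg (1.69 to 2.14) and Apoa2 (2.97 to 3.32) were under the median on every array. So was the pancreas marker Cpa1 (2.66 to 2.80). The summed signal of the 7 markers on that list was 1402, 241, 354 and 240.1, and their part in the result was not tested.

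**Figure D4:**
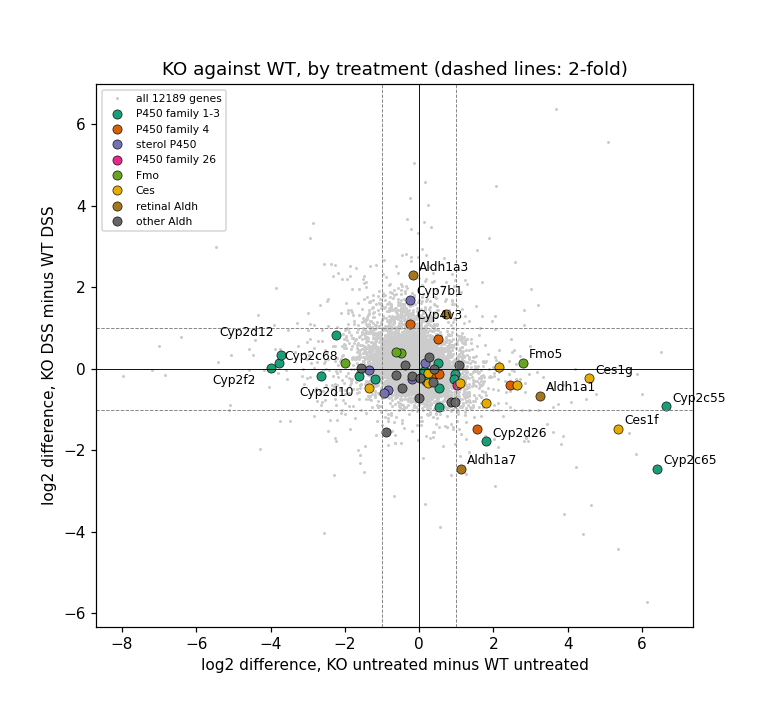
The log2 KO minus WT difference without DSS (horizontal) is plotted against that under DSS (vertical), with members coloured by family, all 12189 genes in grey and dashed lines at 2-fold. On the horizontal axis 34 of 61 members lie within 2-fold and the rest reach from Cyp2f2 at -3.99 to Cyp2c55 at 6.64, and Aldh1a3 and Cyp7b1 are the members with the highest values under DSS.

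Aldh1a3 and Cyp7b1 were the only members at least 2-fold above each other array in KO DSS (3.28%, against 1.85% of all genes), and the only ones at least 2-fold higher with DSS in KO. Cyp7b1 had passed the filter on that array alone, and 0 of the 34 members above the median everywhere showed this pattern, beside 1.16% of such genes. Aldh1a3, a retinaldehyde dehydrogenase, read 3.60 in untreated WT, 3.44 in untreated KO, 4.32 in WT DSS and 6.61 in KO DSS. KO DSS was thus 9.0-fold above untreated KO, and 2 further probe sets gave log2 differences of 1.86 and 1.23. Cyp7b1, an oxysterol 7-alpha-hydroxylase, read 2.91, 2.67, 3.09 and 4.78, and a second probe set gave a DSS difference of 2.74 in KO and 0.14 in WT. Also higher in KO than in WT under DSS were Aldh1a2 (1.35), the stromal retinaldehyde dehydrogenase, and Cyp4v3 (1.10), which was lowest in WT DSS. Aldh1a2 had passed the filter on the KO arrays alone, with a highest value of 3.54, and Cyp4v3 on every array but WT DSS. Both thus had to be higher in KO under DSS. A second Cyp4v3 probe set gave 0.78. Fmo2 differed by 0.39, while its other probe sets that passed the filter gave 0.77, 1.54 and 1.48. Some fibroblast, neutrophil and B cell markers and the posterior gene Hoxd13 (2.98) were also higher in KO DSS. Of 6 fibroblast markers 2, Dcn and Lum, were at least 2-fold higher in KO DSS than in WT DSS. The summed signal of the 6 was 3619 against 1742. Of 5 neutrophil markers 2, S100a8 (2.49) and S100a9 (3.43), were at least 2-fold higher, and the summed signal of the 5 was 685 against 109.5. Csf3r differed by 0.98, and Cxcr2 and Mpo, under the median on every array, by 0.00 and 0.19. Of 7 B and T cell markers 3, the B cell genes Ms4a1 (2.57), Cd79b (2.55) and Cd79a (2.21), were at least 2-fold higher, with a summed signal of 468 against 151. The part of these markers in the result was not tested.

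Under DSS the members at least 2-fold lower in KO than in WT were Aldh1a7 (-2.46), Cyp2c65 (-2.45), Cyp2d26 (-1.78), Aldh1l2 (-1.55), Ces1f (-1.47) and Cyp4f14 (-1.47). Aldh1l2, the mitochondrial folate-linked member, read 3.78, 2.88, 4.59 and 3.04 and was lower in KO in both treatments. For KO against WT with treatment as covariate, limma's adjusted p passed 0.05 for 0 members and for 0% of all genes. The members lower with an unadjusted p under 0.05 numbered 2, Aldh1l2 (-1.23, SE 0.35) and Cyp51 (-0.77, SE 0.25), against 0.771% of all genes, and 0 higher, against 0.665%. The smallest adjusted p of a member was 1.00. With no treatment covariate 3 members passed 0.05 unadjusted over the 4 arrays, a count with no share of all genes beside it.

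By family, the 17 members of P450 families 1 to 3 had 10 at least 2-fold lower with DSS in WT and 7 in KO, with medians of -1.34 and -0.49, and 0 higher. Of 9 carboxylesterases, DSS values were at least 2-fold lower for 2 and higher for 2 in WT and lower for 7 in KO, with medians of 0.21 and -2.15. P450 family 4 had 6 members, of which 2 were lower in WT (Cyp4f13 and Cyp4v3) and 3 in KO. Among 4 Fmo genes, 3 were lower in WT (Fmo1, Fmo2 and Fmo5) and 1 in KO (Fmo5). The 4 members listed with the retinaldehyde dehydrogenases, where Aldh1a7 was put as a paralog of Aldh1a1, had 0 at 2-fold in WT. In KO 2 were lower (Aldh1a1 and Aldh1a7) and 1 higher (Aldh1a3), and the medians were 0.04 in WT and -1.73 in KO. Over all genes 4.96% were 2-fold lower and 5.82% higher in WT, 6.68% lower and 10.8% higher in KO, and the medians were -0.01 and 0.06.

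Of 6 members listed with the sterol, bile acid and steroid P450 genes, Cyp20a1 among them, Cyp27a1 was 2-fold lower in both genotypes. Cyp7b1 was higher in KO, and the rest were within 2-fold with DSS. Cyp51, the lanosterol demethylase of cholesterol synthesis, read 7.88, 6.94, 7.45 and 6.86. Cyp26a1, which degrades retinoic acid, was higher in untreated KO by 1.03 and differed by 0.47 and -0.95 with DSS in WT and KO. Among 14 aldehyde dehydrogenases outside the retinaldehyde group, 2 were at least 2-fold lower in WT (Aldh3b2 and Aldh6a1) and 5 in KO, with medians of -0.35 and -0.76. The 5 members with the highest mean signal, which does not rank transcripts because probe sets differ, were Aldh9a1, Aldh2, Cyp3a13, Aldh18a1 and Cyp51. Aldh9a1, an enzyme of carnitine synthesis, stayed between 7.91 and 8.13 and Aldh2, the mitochondrial acetaldehyde dehydrogenase, read 8.64, 8.01, 7.69 and 7.53.

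The 49 genes of these families that did not pass had highest values of 0.71 to 3.46. They include genes that are inducible in other settings, such as Cyp1a1 (1.25 to 1.69) and Cyp1b1 (2.07 to 2.48), targets of the aryl hydrocarbon receptor, Cyp24a1 (2.00 to 2.36), which degrades vitamin D, and the hepatic Cyp3a11 (0.52 to 1.07), which lay under the background limit on every array. Another 7 probe sets named several genes of these families and were not used.

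The partners and regulators of these enzymes were counted in the same way, and their counts stand beside 4.96% of all genes lower and 5.82% higher with DSS in WT, and 6.68% lower and 10.8% higher in KO. The 5 measured P450 electron partners and 8 heme synthesis genes had 0 members 2-fold apart in any of the 4 pair comparisons. Cyb5a, which encodes cytochrome b5, differed by -0.88 in WT and -0.47 in KO, and Alas1, the rate-limiting enzyme of heme synthesis, by 0.27 and 0.02. Of 16 sensors and regulators 1 was at least 2-fold lower and 1 higher with DSS in WT, and 6 lower and 2 higher in KO, with medians of 0.00 and -0.87. The sensors' counts in WT and their count of higher genes in KO are thus near the shares of all genes, and the 6 lower in KO are above it. Cebpb, a transcription factor of inflammation, was higher by 1.14 and 1.58. Vdr, the vitamin D receptor, read 7.95 in untreated WT, 7.89 in untreated KO, 6.69 in WT DSS and 6.20 in KO DSS. Ppara, the fatty acid sensor, read 4.26, 6.25, 3.29 and 2.79, highest in untreated KO as Cyp2c55 was. For the intestinal regulator Hnf4a the DSS difference was -0.30 in WT and -1.0 in KO, for its paralog Hnf4g -0.45 and -1.91, for the pregnane X receptor gene Nr1i2 0.09 and -0.97, and for Ahr -0.60 and 1.05.

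Of 20 other phase I enzymes, 4 were at least 2-fold lower (4.96% of all genes) and 3 higher (5.82%) with DSS in WT, and 7 lower (6.68%) and 1 higher (10.8%) in KO. Aadac, an esterase of the endoplasmic reticulum, was higher by 1.22 in WT and lower by -2.25 in KO, and the aldo-keto reductase gene Akr1c19 differed by -0.29 and -1.69. Akr1b8, another aldo-keto reductase gene, was higher by 1.97 and 1.51, and Nqo1, a quinone reductase, by 1.30 in WT and lower by -2.14 in KO. Dpyd, which degrades pyrimidines, was lower by -1.43 and -3.42, and Maoa, a monoamine oxidase, by -0.60 and -1.75. Of 6 retinoid handling genes, 2 were lower with DSS in WT (Adh1, counted in both lists, and Rbp2) and 1 higher in KO (Rdh10, 1.68), which makes retinaldehyde. Of 11 cholesterol synthesis genes beside Cyp51, 2 were lower in WT (Hmgcs1 and Insig1) and 1 in KO (Dhcr7), and 3 were lower in untreated KO than in untreated WT (Fdft1, Idi1 and Msmo1), beside 5.99% of all genes. Of the 2 P450 genes without a Cyp symbol, the prostacyclin synthase gene Ptgis differed by -0.58 in WT and 1.11 in KO, and Tbxas1 did not pass the filter.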

How the data were processed

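The deposited table holds log2 signal per probe set for 45101 probe sets on 4 arrays. The authors' deposited values were read as log2 because natural logs would put the top value of 13.23 above a 16-bit scanner's range. The summarization and normalization are not given in the sources used here. Per the labels' protocols, Trizol RNA was made into biotinylated cRNA. Probe sets were named from the platform annotation and RefSeq gene numbers (34945 with 1 symbol, 932 with several, 64 controls left out).

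Pair differences and counts at 2-fold have no test. DSS (covariate genotype) and genotype (covariate treatment) were fitted with limma 3.58.1 in R 4.3.3 over all 12189 genes, with an intensity trend, two-sided, Benjamini-Hochberg at 0.05, and 1 residual degree of freedom. The background limit, 1.39, is the highest of 9 Y-linked probe sets on arrays with bright Xist. A difference from a value under it is a bound.

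Members, the 8 family and 18 other lists and all rules were chosen with earlier results of these data known. Named members were those 2-fold lower or higher with DSS in both genotypes or 4-fold apart in any pair, the 5 with the highest mean, those with an unadjusted p under 0.05, the 2 nearest the filter on each side, and, for families and lists, those with the largest differences. Other genes, such as Cyp1a1, Alas1, Nr1i2 and the remaining non-members named, fall outside this rule and were picked with their values known. The alternatives tried were median centring, quantile normalization, a filter at percentile 75 or none, the mean over probe sets, leaving out _x_at, _s_at and _a_at probe sets, limma without covariate or trend, each array left out, and untreated WT as the KO reference. The code was checked on simulated data. Python 3.11.15 was used.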

Additional observations from a re-analysis of the deposited data

Results flagged for a closer look

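For 6 members an effect was at least 2-fold in opposite directions in the 2 groups set side by side. With 1 array in each group these differences were not tested. The DSS difference in KO minus that in WT was -6.82 for Ces1f and -4.80 for Ces1g, both higher with DSS in WT and lower in KO. The KO minus WT difference under DSS minus that without DSS was -8.86 for Cyp2c65, -6.82 for Ces1f, -3.59 for Aldh1a7, -3.58 for Cyp2d26 and -3.03 for Cyp4f14, all higher in KO without DSS and lower under it.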

How the results depend on the processing

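The counts of members at least 2-fold apart stayed within 1.5 times under quantile normalization, median centring, no filter, the mean over probe sets and the removal of probe sets that can match several transcripts. That removal dropped Ces1f, and Aldh18a1 took its place among the members higher with DSS in WT, through another probe set (1.10). Under the filter at percentile 75, 1 member rather than 2 was higher with DSS in KO, and 1 rather than 4 higher in KO under DSS, because fewer genes were kept. With untreated WT as the reference, 29 members rather than 26 were at least 2-fold lower in KO DSS and 3 rather than 2 higher. That reference turned the KO value to 0.38 for Ces1d, 0.80 for Ces1f and 1.64 for Ces1g, and 19 other named values moved by more than 0.5. Among them Cyp2c68 (0.28 to -3.50), Cyp2d10 (0.02 to -2.62), Cyp2d12 (0.33 to -3.40) and Cyp2d9 (0.69 to -1.55) went from under 2-fold to lower. With that reference 6 named values of at least 2-fold were under it. The mean over probe sets moved 2 named values by more than 0.5, and the removal of probe sets 1. Limma called 0 members at the adjusted threshold under the alternatives run, which says nothing about stability with 1 residual degree of freedom. At an unadjusted p under 0.05 it gave 17 members for DSS after quantile normalization and 16 with no filter, beside 10. For genotype it gave 1 to 4 over the alternatives with 4 arrays, beside 2. These counts have no share of all genes beside them, so they describe the settings and not the members. Fits without each array in turn and with no covariate were also run. In them an arm is 1 array assumed to vary like the other arm, so their counts are not given. No paired analysis was possible because each group has 1 array. Leaving an array out of a pair difference leaves no value.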
